A study of Mus musculus with 4 samples.

Results

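Regulators of G-protein signalling (RGS genes) encode proteins that switch G-protein signals off. A receptor loads a G alpha subunit with GTP, and the RGS domain speeds the hydrolysis of that GTP, so that the alpha subunit returns to its beta and gamma partners and the signal ends sooner. Neurons use these proteins to set how long receptors for glutamate, GABA, serotonin, dopamine and opioids act on adenylyl cyclase, phospholipase C and ion channels. The 10 genes described here, Rgs2, Rgs4, Rgs7, Rgs8, Rgs9, Rgs10, Rgs12, Rgs16, Rgs17 and Rgs20, were taken by symbol from a table of 32681 genes. They were proposed with the values of the DcpS shRNA against control shRNA contrast already known, so their differences in that contrast are given as a description and support nothing, also where the fit over all genes called one of them. In all, 10 of the 10 had a row and passed the filter on low counts.

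The study asked which transcripts lie downstream of DcpS, the enzyme that clears the cap structure left over when mRNA is degraded from its 3′ end. Primary neuron cultures came from the neocortex of wild-type CD-1 mouse embryos at embryonic day 13, and each was transfected with a short hairpin RNA (shRNA). The control group held 2 libraries transfected with Control shRNA. The other group held 2 libraries transfected with DcpS shRNA, whose titles both carry the single hairpin label shDcPS-2. All 4 cultures were wild type, shared strain, age and medium, and carried a hairpin. Transfection need not reach every cell, and RNA was taken from the whole culture, so fewer cells of a type and less RNA per cell cannot be told apart.

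Libraries held 17754768 to 21793685 reads, of which the 10 genes made up 0.0203% and 0.0211% in the control group and 0.0234% and 0.0238% in the other. Values below are normalised read counts, which are reads divided by a size factor for each library. Dcps itself was at 499.8 and 507 in the controls and at 114 and 119.6 with DcpS shRNA, or 23.3% of the control mean. Cortical neuron markers were abundant in each library: their 10 genes summed to between 4464 and 4802 CPM (each library's reads scaled to a common total), led per length by Tubb3, Neurod6 and Dcx. The 6 fibroblast markers summed to 560 and 616 CPM in the controls and to 341 and 329.5 CPM with DcpS shRNA. Replicate libraries varied beyond counting noise (chi-square per degree of freedom 2.15 for the controls and 4.03 with DcpS shRNA). The labels do not say whether replicates were separate dissections, and a p-value here reflects only how far these 4 libraries spread, which may be technical variation.

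RGS proteins fall into subfamilies by sequence. The R4 subfamily, with Rgs2, Rgs4, Rgs8 and Rgs16 among the genes described, holds small proteins with little beside the RGS domain. The R7 subfamily (Rgs7 and Rgs9) holds larger proteins that are stable only in complex with the beta subunit Gnb5. The R12 subfamily (Rgs10 and Rgs12) and the RZ subfamily (Rgs17 and Rgs20) complete the set, the last known for acting on the alpha subunit Gnaz. Rgs4, Rgs5 and Rgs16 are also known as substrates of the N-degron pathway: once the first methionine is removed, a cysteine is exposed and oxidised, and the protein is degraded.

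The coding starts of the R4 genes show which of them carry that cysteine. The first 30 coding bases of the principal transcript are printed 5′ to 3′, with the second codon in capitals.
Rgs4: atgTGCaaaggacttgcaggtctgccggct
Rgs16: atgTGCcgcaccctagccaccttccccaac
Rgs5: atgTGTaagggactggcagctctgccgcac
Rgs8: atgGCTgccttactgatgccacgcaggaac
Rgs2: atgCAAagtgccatgttcctggctgtccag
The codons TGC and TGT encode cysteine, and 3 of 21 RGS genes had one at the second position, Rgs4, Rgs5 and Rgs16. Over the 21501 genes with a complete coding sequence in the annotation, 195 (0.907%) did. Rgs8 has alanine there and Rgs2 glutamine. The principal coding sequences of the R4 genes were short, with 205 codons for Rgs4, 201 for Rgs16, 180 for Rgs8 and 211 for Rgs2. By comparison Rgs7 had 469 and Rgs12 1381 codons.

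Most of the genes described lie on chromosome 1 (GRCm38, GENCODE M21), and Rgs8 and Rgs16 are neighbours there. Rgs8 (153653025 to 153700323, plus strand) ends 40025 bases before Rgs16 (153740349 to 153745468, plus strand), with no protein-coding gene annotated between them. Rgs4 (169741477 to 169747642, minus strand) lies 45663 bases from another RGS gene, Rgs5 (169655501 to 169695813, plus strand). Rgs2 (143999338 to 144004161), Rgs7 (175059087 to 175492500) and Rgs20 (4909576 to 5070285) are on the minus strand of the same chromosome. The others are Rgs12 on chromosome 5 (34949445 to 35039644), Rgs10 on 7 (128373621 to 128418758), Rgs17 on 10 (5825663 to 5922400) and Rgs9 on 11 (109225355 to 109298129).

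The stretch before the start site is printed for the 4 R4 genes described, so that Rgs4, Rgs8 and Rgs16, which had higher values with DcpS shRNA, can be set beside Rgs2, which did not. Each is 230 bases of the RefSeq promoter table (GRCm38.p6), from base 250 to base 21 before the annotated start, 5′ to 3′ on the gene's strand. Capitals mark 3 searched motifs on either strand: TGACG (the core of the cAMP response element), GGGCGG (the GC box) and TATAAA (the TATA box).
Rgs4, chr1:169747663-169747892, minus strand: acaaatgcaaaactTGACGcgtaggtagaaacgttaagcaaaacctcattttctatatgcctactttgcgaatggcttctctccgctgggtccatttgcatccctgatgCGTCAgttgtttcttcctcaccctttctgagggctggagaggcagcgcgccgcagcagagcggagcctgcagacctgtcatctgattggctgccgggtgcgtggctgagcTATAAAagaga
Rgs8, chr1:153652787-153653016, plus strand: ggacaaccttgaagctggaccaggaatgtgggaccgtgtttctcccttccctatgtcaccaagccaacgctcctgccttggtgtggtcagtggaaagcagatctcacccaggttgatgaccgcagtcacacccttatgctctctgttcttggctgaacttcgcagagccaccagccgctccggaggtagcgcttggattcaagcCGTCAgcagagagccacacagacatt
Rgs16, chr1:153740103-153740332, plus strand: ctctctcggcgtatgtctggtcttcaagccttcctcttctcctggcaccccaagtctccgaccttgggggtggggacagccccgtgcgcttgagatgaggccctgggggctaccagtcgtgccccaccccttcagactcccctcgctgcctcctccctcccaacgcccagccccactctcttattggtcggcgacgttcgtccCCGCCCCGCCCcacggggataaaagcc
Rgs2, chr1:144004170-144004399, minus strand: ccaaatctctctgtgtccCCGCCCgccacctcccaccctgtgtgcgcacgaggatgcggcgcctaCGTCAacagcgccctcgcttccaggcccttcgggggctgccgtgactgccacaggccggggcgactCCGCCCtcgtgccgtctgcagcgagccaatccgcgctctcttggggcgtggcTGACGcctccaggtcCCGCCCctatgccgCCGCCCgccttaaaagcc
The window of Rgs4 held 2 TGACG matches and 1 TATAAA, that of Rgs8 1 TGACG, and that of Rgs16 2 GC boxes that overlap by 1 base. The window of Rgs2 held 4 GC boxes and 2 TGACG matches. No searched motif was common to the windows of Rgs4, Rgs8 and Rgs16. Over 32851 promoter windows of the same length, 15.9% held TGACG, 29.8% the GC box and 11.8% TATAAA. RefSeq lists 3 starts for Rgs8, of which the most upstream is shown, and the table gave an entry for 9 of the 10 genes, all but Rgs20.

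Within the R4 subfamily, Rgs4, Rgs8 and Rgs16 were higher with DcpS shRNA and Rgs2 was level. Rgs8, a regulator of Gi/o signals best known from cerebellar Purkinje cells, was at 316 and 326 in the controls and at 542 and 594.5 with DcpS shRNA. Both DcpS shRNA libraries lay far above both controls, and the 2 libraries of each group were close to each other. Its log2 fold change was 0.82 (SE 0.09), or 177% of the control mean.

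Rgs4, which acts on Gi/o and Gq subunits and is abundant in cortical neurons, was at 437 and 400.0 in the controls and at 538 and 637 with DcpS shRNA. Its groups did not overlap, and the DcpS shRNA libraries differed from each other more than the controls did. Its log2 fold change was 0.48 (SE 0.09). Rgs16, a small regulator known from the circadian clock of the suprachiasmatic nucleus, was at 200.5 and 257 in the controls and at 296 and 332 with DcpS shRNA. The groups did not overlap, although control 2 stood closer to DcpS shRNA 1 than to control 1. Its log2 fold change was 0.46 (SE 0.12), and 0.28 (SE 0.13) without control 1. Of its exon length, 10.1% overlaps Gm28513 on the opposite strand.

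Rgs2, which acts mainly on Gq, was at 214 and 244 in the controls and at 216 and 245 with DcpS shRNA. The values of the groups interleaved, with a log2 fold change of 0.01 (SE 0.12), so the difference lay within the spread between libraries. Per length and depth, the 4 R4 genes described summed to 16.1 and 17.2 RPKM (CPM per kilobase of exon) in the controls and to 21.0 and 24.0 with DcpS shRNA. Both sums with DcpS shRNA lay above both control sums. Of the 10 neuron markers, 2 were called higher (limma), Slc17a7 (0.52, SE 0.06) and Rbfox3 (0.24, SE 0.06), and their part in the R4 values was not tested.

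**Figure D1:**
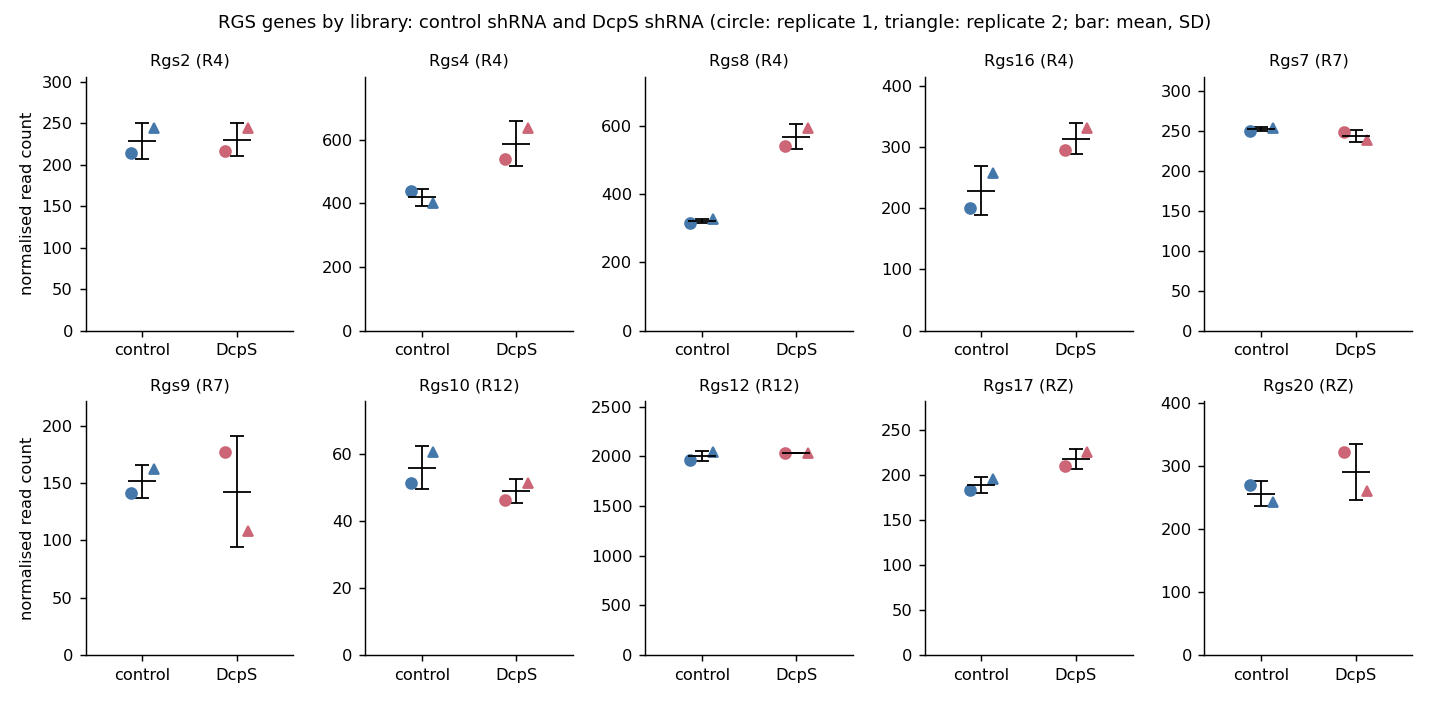
Normalised read count of each of the 10 RGS genes (vertical axes, each from 0) in the 2 control shRNA and 2 DcpS shRNA libraries, with the mean and SD of each group (n = 2). Rgs8, Rgs4 and Rgs16 sit higher in both DcpS shRNA libraries than in both controls, while Rgs9 differs most between the DcpS shRNA libraries (177 and 108).

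The R7 genes Rgs7 and Rgs9 were near the control mean with DcpS shRNA, at 96.6% and 94.1% of it. Rgs7, which forms complexes with Gnb5 at synapses, was at 251 and 254 in the controls and at 249 and 239 with DcpS shRNA. Both DcpS shRNA values lay below both controls, but by few reads, and the log2 fold change was −0.05 (SE 0.10). Rgs9, the regulator of phototransduction and of dopamine signals in the striatum, was at 142 and 162 in the controls and at 177 and 108 with DcpS shRNA. Its DcpS shRNA libraries fell on either side of the controls, one above and one below both. Their counting intervals (exact Poisson, 95%, counting error only) ran from 153 to 204 and from 87.9 to 132, without overlap.

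The log2 fold change of Rgs9 was −0.13 (SE 0.19), and it was 0.22 (SE 0.16) without DcpS shRNA 2, so its sign rests on that library. Reads were counted per gene, so the retinal and brain forms of Rgs9 are not separated. The markers of striatal projection neurons, a cell type rich in Rgs9, summed to 16.5 and 16.8 CPM in the controls and to 17.8 and 19.1 CPM with DcpS shRNA. Of their 7 tested genes, 0 were called (limma, 1 at an unadjusted p under 0.05).

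Rgs9 is also the only gene of the 10 with a 7-base word of interest in its annotated 3′ untranslated region. An earlier look at these data found ACGTGCA and CACGTGC to be common in the 3′ regions of genes that were lower with DcpS shRNA, and both lie in the Dcps transcript. The sites are shown with 11 bases on either side and the word CACGTGC in capitals.
Dcps: actatcacctgCACGTGCatttcacagct
Rgs9: gctcggaggctCACGTGCactgacagaat
Rgs3: ctctgctggccCACGTGCttctggggggt
In Dcps and Rgs9 the next base completes ACGTGCA as well, and Rgs3 has CACGTGC alone. Either word was present in 1097 of the 13709 tested genes that could be scanned. Among these it was in 214 of the 646 called lower (33.1%) and in 23 of the 368 called higher (6.25%). The words were found through genes that were lower in these same data, so the share among genes called lower supports nothing. Neither Rgs9 nor Rgs3 was called lower. A match is a description of the letters, and its part in any value was not tested.

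In the R12 subfamily, Rgs12, a large protein that joins an RGS domain to PDZ and GoLoco domains, was at 1968 and 2043 in the controls and at 2038 and 2034 with DcpS shRNA. The DcpS shRNA values fell between the controls, and the log2 fold change was 0.02 (SE 0.05). Rgs10, a protein of little more than the RGS domain that is abundant in microglia, had the fewest reads of the 10 genes. It was at 51.3 and 60.5 in the controls and at 46.3 and 51.4 with DcpS shRNA, from 46 to 59 reads per library. Its groups overlapped, with a log2 fold change of −0.19 (SE 0.21), and the counting intervals of all 4 libraries overlapped.

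Markers of microglia and leukocytes were also measured. Their 10 genes summed to 11.6 and 11.5 CPM in the controls and to 10.6 and 11.1 CPM with DcpS shRNA. Of 8 tested, 0 were called (limma, 1 at an unadjusted p under 0.05). The 3 leading ones were Aif1, C1qb and C1qa, with adjusted p-values of 0.357, 0.975 and 0.887 (limma). Aif1 had 57 and 46 control reads, like Rgs10, against 34 and 40 with DcpS shRNA. Tmem119, the gene under the unadjusted threshold, went the other way, with 30 and 25 control reads against 47 and 34. Its log2 fold change was 0.56 (SE 0.25), and it was not called. The microglial genes P2ry12 and Trem2 had 0 to 3 reads per library. The part of such cells in the level of Rgs10 was not tested.

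In the RZ subfamily, Rgs17 was at 183 and 196 in the controls and at 209.9 and 226 with DcpS shRNA. Both DcpS shRNA libraries lay above both controls, with a log2 fold change of 0.20 (SE 0.12). Rgs20 was at 269.8 and 242 in the controls and at 322 and 259 with DcpS shRNA. Its groups overlapped, since DcpS shRNA 2 lay between the controls, and the log2 fold change was 0.18 (SE 0.12). Exons of Rgs20 overlap those of Atp6v1h on the opposite strand within the 5.94% of its exon length shared with other genes. If strand was ignored in counting, reads there could belong to either gene.

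Over the whole table, 5.79% of 18110 genes tested were called (limma, Benjamini-Hochberg adjusted p under 0.05), 2.14% as higher and 3.65% as lower. Of the 10 RGS genes, 3 were called, all higher: Rgs4, Rgs8 and Rgs16. Because the genes were proposed from this contrast, nothing is read from that count. Whatever the test gave, both DcpS shRNA libraries lay above both controls for 4 of the 10 genes (Rgs4, Rgs8, Rgs16 and Rgs17) and below both for 1 (Rgs7). Among all genes tested the shares were 24.4% and 24.0%. The median log2 fold change of the 10 was 0.10, beside 0.00 for all genes tested. The call of Rgs16 ended with DESeq2, without control 1 and without DcpS shRNA 2.

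**Figure D2:**
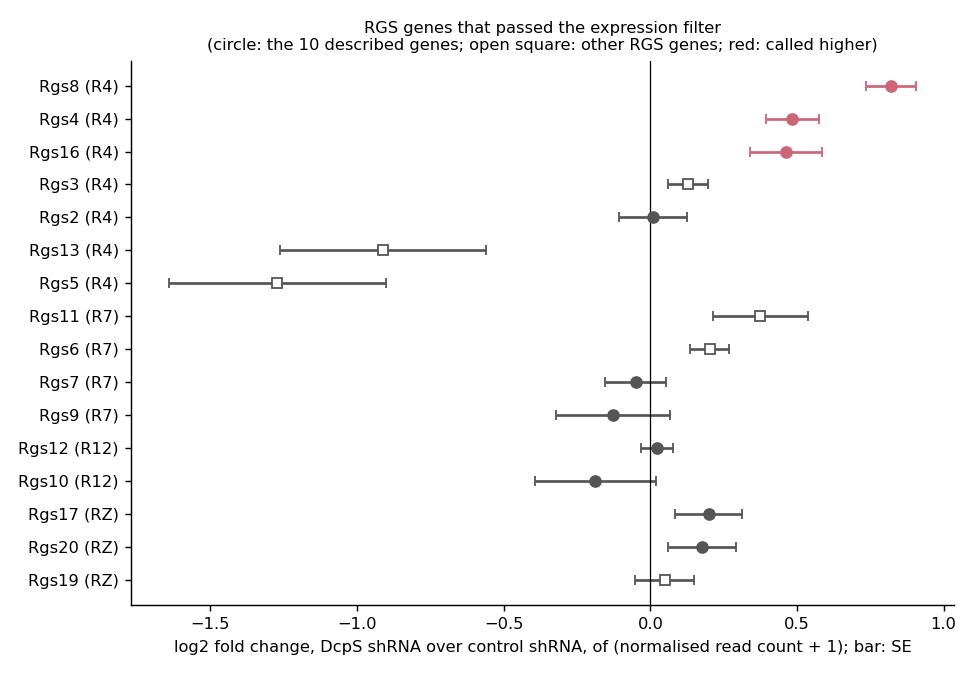
Log2 fold change with SE (horizontal axis) of the 16 RGS genes that passed the filter, grouped by subfamily. Rgs8 (0.82), Rgs4 (0.48) and Rgs16 (0.46) are the called genes, and Rgs5 and Rgs13 of the same subfamily lie on the negative side with wide errors.

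The other RGS genes were listed as the family's remaining members, not for how they moved. Of 11, Rgs18 and Rgs21 had no row among the 32681 genes, and Rgs1, Rgs14 and Rgs22 had too few reads for the test. Of the 6 tested, 0 were called by limma, 4 had an unadjusted p under 0.05 (18.7% of all genes tested did), and edgeR called 1. Their median log2 fold change was 0.09. These were Rgs3 and the pericyte marker Rgs5 with Rgs13 in R4, Rgs6 and Rgs11 in R7, and Rgs19 in RZ.

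Rgs5, the neighbour of Rgs4, was at 27.6 and 19.5 in the controls and at 9.09 and 8.94 with DcpS shRNA, from 8 to 29 reads. The groups did not overlap and the log2 fold change was −1.27 (SE 0.37), with an adjusted p of 0.0549 (limma). Of the 12 alternatives that gave it an adjusted p, 4 called it, edgeR among them. The endothelial and mural markers summed to 40.8 and 42.8 CPM in the controls and to 26.6 and 24.0 CPM with DcpS shRNA. Of 6 tested, 3 were called lower, among them the pericyte receptor Pdgfrb (log2 fold change −0.72, SE 0.09), and 3 more of the 9 (Cldn5, Tek and Kcnj8) had too few reads. The other called ones were Acta2 and Kdr, and the call of Kdr ended with DESeq2 and without control 2. The list did not go one way: the endothelial gene Pecam1 was at 5.70 and 12.3 in the controls and at 19.99 and 14.5 with DcpS shRNA (not called), and the pericyte gene Cspg4 had a log2 fold change of −0.09 (SE 0.18). Their part in the difference of Rgs5 was not tested.

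Rgs13, an R4 gene best known from lymphocytes and mast cells, was at 22.8 and 20.5 in the controls and at 10.9 and 11.2 with DcpS shRNA. Its groups did not overlap, and the log2 fold change of −0.91 (SE 0.35) did not pass (adjusted p 0.163, limma). Rgs6, the R7 gene with the most reads, was at 695 and 693 in the controls and at 806 and 791 with DcpS shRNA. The difference of 0.20 (SE 0.07) on the log2 scale did not pass either (adjusted p 0.0955, limma), although the libraries of each group were close together. Rgs11 was at 103 and 128 against 131 and 169.9 (0.38, SE 0.16, adjusted p 0.217, limma).

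Rgs3, a Gi/o and Gq regulator with many transcript forms, was at 692 and 721 against 787 and 758 (0.13, SE 0.07, adjusted p 0.335, limma). Rgs19, also called GAIP, was at 317 and 279 against 302 and 314 (0.05, SE 0.10, adjusted p 0.858, limma), and its groups overlapped. Rgs22, named after its values were seen, had 0 reads in both controls and 5 and 6 reads with DcpS shRNA. A count of 0 allows up to 3 reads per library, or 0.144 and 0.155 CPM in the controls, covering counting error only. Without an expression filter, limma called Rgs22 higher and Rgs5 lower.

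Levels of different genes can be compared only per length, as RPKM over the union of annotated exons. Rgs12 was the highest of the 19 RGS genes with a value, at 11.7 and 12.2 RPKM in the controls. Rgs4 followed (7.12 and 6.52), with Rgs19 (7.18 and 6.32) within its spread, and then Rgs16 (4.32 and 5.56). Rgs6 came next (3.49 and 3.49). Rgs3, Rgs2 and Rgs20 followed, between 2.88 and 3.40, each overlapping its neighbour in that order.

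Rgs7 stood apart from the genes on either side of it (2.10 and 2.13 RPKM). Rgs8 (1.66 and 1.71), Rgs10, Rgs11, Rgs9 and Rgs17 (1.11 and 1.19) formed a run in which each overlapped the next. Rgs13 and Rgs5 were below 1 RPKM, and Rgs14, Rgs1 and Rgs22 were at or near 0. With DcpS shRNA the first 6 places held the same genes in the same order. Rgs8 went from the place of rank 10 to rank 9, at 2.84 and 3.11 RPKM. With the length of the longest transcript in place of the exon union, Rgs12 was still first, while Rgs4 took rank 4 after Rgs19 and Rgs3, so the order below Rgs12 depends on the gene model.

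**Figure D3:**
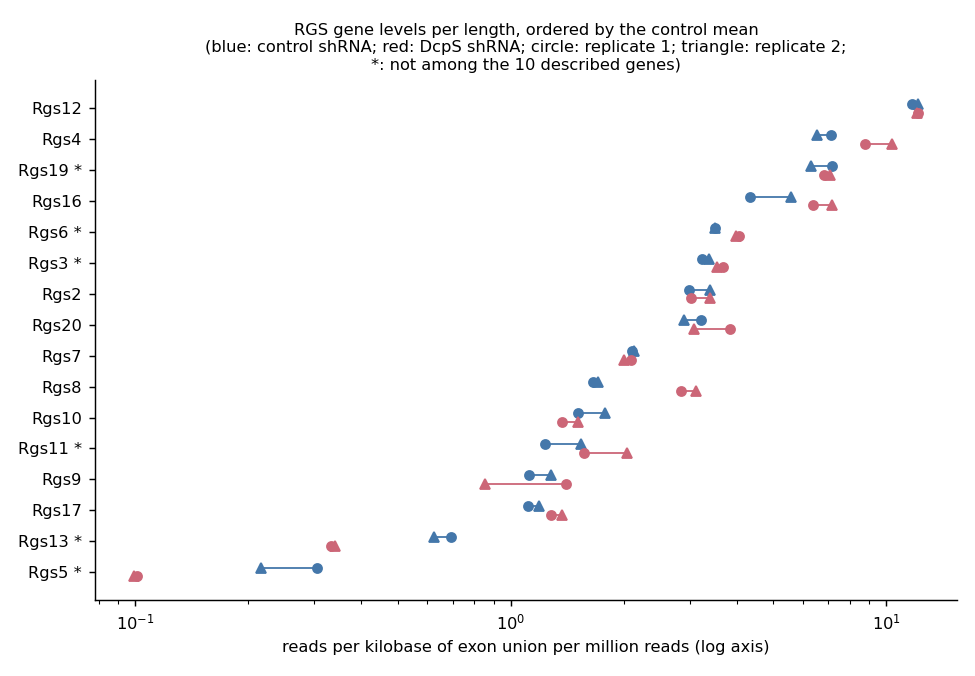
RPKM over the exon union (horizontal log axis) of the 16 RGS genes that passed the filter, ordered by the control mean, with 1 point per library. Rgs12 is highest in all 4 libraries at 11.7 to 12.2 RPKM, and Rgs8 shows the widest gap between the groups among the 10 genes.

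The pathway around RGS proteins was described with 11 lists chosen by function: G-protein subunits, receptors, effectors and partners. Earlier results of these data were known when the lists were chosen, so their counts are given as a description. Of their 113 tested genes, 2 were called higher and 9 lower (limma, 9.73% beside 5.79% of all genes), and 28 had an unadjusted p under 0.05 (24.8% beside 18.7% of all genes). The median log2 fold change was −0.02, beside 0.00 for all genes tested. All 6 fibroblast markers, 3 of 6 tested endothelial and mural and 4 of 6 tested astrocyte markers were called lower (limma), and 0 higher. Of the 10 neuron markers, 2 were called higher and 0 lower. The part of these cell types in the pathway calls was not tested.

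Among the alpha subunits, the targets of RGS proteins, 2 of 12 tested were called, both lower. Gnai2, a Gi subunit that inhibits adenylyl cyclase, was at 4635 and 4539 in the controls and at 3552 and 3641 with DcpS shRNA. It fell by 0.35 (SE 0.05) on the log2 scale (limma, adjusted p 0.000482), and the libraries of each group were close. Gna11, of the Gq class that activates phospholipase C, was at 2599.7 and 2346 against 2033 and 1967. It fell by 0.30 (SE 0.06, adjusted p 0.00491, limma), and its 3′ untranslated region holds CACGTGC. The list's median was −0.01.

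Of 11 beta and gamma subunits tested, 2 gamma subunits were called lower. Gng5 was at 885 and 852 in the controls and at 509 and 586 with DcpS shRNA, a log2 fold change of −0.67 (SE 0.08, adjusted p 5.71e-05, limma). It also holds CACGTGC in its 3′ untranslated region. Gng12 was at 566 and 609 against 473 and 473 (−0.31, SE 0.08, adjusted p 0.0261, limma). The list's median was −0.02.

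Among receptors that couple to Gi/o, 1 of 24 tested was called higher and 1 lower, with a median of 0.02. Gabbr2, a subunit of the GABA-B receptor, was at 570.1 and 629 against 753 and 715 (0.29, SE 0.07, adjusted p 0.0283, limma). Grm3, a group II metabotropic glutamate receptor, was at 112 and 119.99 against 75.4 and 60.3 (−0.77, SE 0.17, adjusted p 0.0120, limma). Both genes kept their groups apart. Chrm2, Npy1r and Lpar1 of this list, none of them called, hold ACGTGCA or CACGTGC or both in their 3′ untranslated regions.

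Of 12 Gq-coupled receptors tested, 2 were called lower, and the median was −0.11. Htr2c, the serotonin 2C receptor, had the largest difference of the 11 called pathway genes, at 96.9 and 103 against 33.6 and 31.3 (−1.59, SE 0.19, adjusted p 9.13e-05, limma). It holds both words in its 3′ untranslated region. Ednra, the endothelin A receptor, was at 106 and 82.0 against 49.1 and 40.2 (−1.06, SE 0.20, adjusted p 0.00417, limma). Of 8 Gs-coupled receptors tested, 1 was called, Adcyap1r1, the receptor for the neuropeptide PACAP. It was higher, at 2308 and 2459 against 2816 and 2769 (0.23, SE 0.05, adjusted p 0.0190, limma), and the list's median was 0.23. Adcyap1r1, though called higher, also holds CACGTGC in its 3′ untranslated region.

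Of 14 effectors tested, 1 was called: Adcy1, the calmodulin-stimulated adenylyl cyclase, was lower, at 3082 and 3441 against 2785 and 2751 (−0.23, SE 0.06, adjusted p 0.0250, limma). Adcy1 holds both words in its 3′ untranslated region. The list's median was −0.06. Calls were absent (limma) in 4 lists: the 8 receptor kinases and arrestins, the 4 GoLoco proteins, the 9 other proteins with RGS-homology domains and the 4 partners of R7 proteins. At an unadjusted p under 0.05 they held 2, 2, 0 and 0 genes, and of their genes DESeq2 called 0 and edgeR 1, Grk3. Their medians were 0.09, 0.17, −0.07 and 0.00. The leading receptor kinases, Grk2 and Grk6, differed by 0.00 (SE 0.05) and 0.03 (SE 0.05) on the log2 scale. Gpsm1 and Gpsm2, GoLoco proteins that bind free Gi subunits, differed by 0.14 (SE 0.05) and 0.01 (SE 0.07). Axin1 and Arhgef12, with RGS-homology domains, differed by 0.03 (SE 0.06) and −0.13 (SE 0.07).

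Among the partners, Gnb5, the beta subunit that R7 proteins need, was at 473 and 481 in the controls and at 441 and 504 with DcpS shRNA (−0.02, SE 0.09). Rgs7bp, which anchors R7 complexes to the membrane, was at 486 and 466 against 486 and 477 (0.02, SE 0.08). Both overlapped between groups, as did Rgs9. Of the 7 genes of the N-degron pathway, 1 was called. Ado, the thiol oxidase that acts on the exposed cysteine of Rgs4, Rgs5 and Rgs16 proteins, was at 815 and 804 in the controls and at 557 and 579.98 with DcpS shRNA. It fell by 0.51 (SE 0.07) on the log2 scale (adjusted p 0.000264, limma), with a list median of −0.05. These values are RNA levels and hold no measure of protein.

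Of the pathway genes called lower, Gna11, Gng5, Htr2c and Adcy1 hold ACGTGCA or CACGTGC or both in their 3′ untranslated regions. Gnai2, Gng12, Grm3, Ednra and Ado, also called lower, hold neither word. Of those called higher, Adcyap1r1 holds CACGTGC and Gabbr2 holds neither. The part of these words in the pathway values was not tested. Gnai2, Gng5, Htr2c and Ado were called under each of the 13 alternatives run. The calls of Gna11, Gabbr2, Ednra and Adcyap1r1 ended without control 1, those of Gng12, Adcy1 and Grm3 without control 2, that of Gabbr2 also without DcpS shRNA 1 and that of Grm3 without DcpS shRNA 2, and DESeq2 did not call Gng12, Adcy1, Gabbr2, Grm3 or Adcyap1r1.

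**Figure D4:**
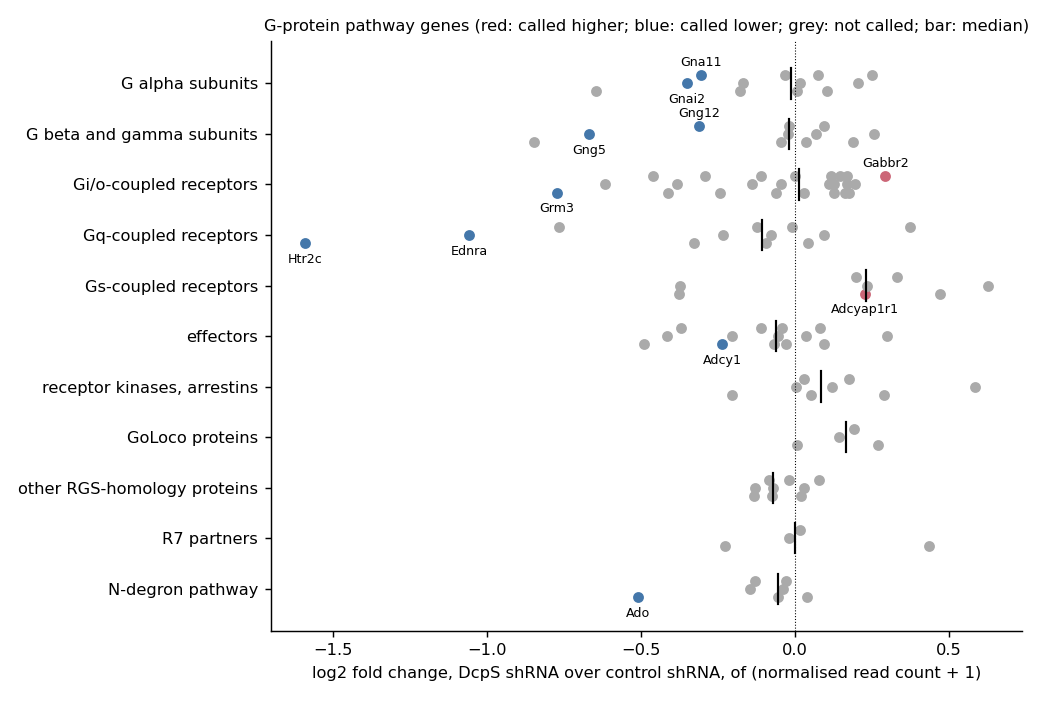
Log2 fold change (horizontal axis) of the 113 tested genes of 11 G-protein pathway lists, 1 point per gene, with the list's median as a bar. The 11 called genes are named: 9 lie on the negative side, from Htr2c (−1.59) to Adcy1 (−0.23), and 2 on the positive side, Gabbr2 (0.29) and Adcyap1r1 (0.23).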

How the data were processed

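RNA was sequenced in 4 neuron cultures, 2 per group. The submitters' processing notes name HISAT2 2.2.0, SAMtools 1.3.1, Picard, featureCounts and DESeq2 with build GRCm38, without roles, annotation or use of strand. The deposited values are a signal: reads divided by 1 size factor per library by the authors. Dividing each column by its smallest positive value gave whole reads for 100% of values (tolerance 0.001), and the implied factors (1.05, 0.975, 1.10 and 0.895) matched median-of-ratios factors.

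The test was limma 3.58.1 on log2(normalised read count + 1), with intensity trend and robust empirical Bayes, two-sided, Benjamini-Hochberg adjusted p under 0.05, over the 18110 genes passing edgeR's filterByExpr (minimum count 10) on the recovered reads. This scale understates the change of low genes. edgeR 4.0.16 and DESeq2 1.42.0 on recovered reads were alternatives, and the script was tested on simulated data. With 2 against 2, an exact permutation test of 1 gene cannot reach 0.05, so p-values rest on spread pooled across genes.

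The members and lists were chosen with earlier results of these data known. Named were all 10 members, other RGS genes passing the filter, called genes of each pathway list or else its leading genes, and at most 3 leading markers per list. A few further markers were named beside these. Marker lists covered cortical neurons, interneurons, striatal neurons, microglia, vascular cells, fibroblasts and astrocytes. Of 8 interneuron genes, 1 was called higher, and of 6 tested astrocyte genes 4 were called lower. Protein sequences were not used here. Set numbers in the titles were not used to pair the samples in the main test.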

Additional observations from a re-analysis of the deposited data

How the results depend on the processing

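Among the 13 alternatives, the count of called genes (1048) became 453 with DESeq2 (141 higher, 312 lower) and 1626 with the replicate block in limma, and it ran from 594 to 1439 when 1 library was left out: 670 without control 1, 594 without control 2, 1439 without DcpS shRNA 1 and 1148 without DcpS shRNA 2. With the replicate block, edgeR called 1385 genes. Other RGS genes called numbered 0 in the main setting, 2 without an expression filter, 1 with edgeR, 1 with the replicate block in limma and 1 with it in edgeR, and 0 with any 1 library left out. Pathway genes called numbered 11 in the main setting, 6 with DESeq2, 18 with the replicate block in limma, and 7 to 17 with 1 library left out. The summed level of the 10 genes in the controls was 37.7 RPKM over the exon union and 52.5 RPKM over the longest transcript. Of 734 values of single genes under alternatives, 682 kept sign and side of the threshold, 19 lost a call, 13 gained one and 20 uncalled values changed sign. The titles give both groups set numbers 1 and 2, and the labels do not say whether a set was a shared preparation. The differences between sets correlated by 0.04 over genes, which cannot settle this. The main test treated the samples as unpaired. Depth limits Rgs10, Rgs5, Rgs13 and Rgs22, with at most 59 reads per library.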
